A study of Mus musculus with 21 samples.

Results

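In endothelial cells of the mouse, 1136 of 58796 autosomal ATAC-seq peaks were low in lung while brain and liver were both open and alike. ATAC-seq inserts adapters into accessible DNA, so the number of reads in a peak measures how open that stretch of chromatin is. The peaks were chosen on the counts themselves. Each count was divided by its library's total in peaks and multiplied by 1000000, which gives CPM, and CPM were averaged per tissue. A peak belonged to the set when brain and liver means were both at least 5 CPM and within 2-fold of each other, and when each of them, plus 0.5, was at least 2 times the lung mean plus 0.5. The set is 1.93% of the autosomal peaks, from a table of 60119 peaks in all. It is 5.76% of the 19730 autosomal peaks that met the conditions on brain and liver, called peaks open in both below. Because brain, liver and lung levels chose the peaks, their levels are descriptions and carry no test.

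Cells were sorted from C57BL/6J mice aged 2 to 4 months as CD31-positive, PDGFRβ-negative, CD45-negative live cells, after perfusion and enzyme digestion; myelin was removed from brain only. No other treatment or genotype is labelled. Open chromatin was measured in 4 brain, 3 liver and 4 lung libraries, and the labels do not say which animals each came from, so the spread between libraries may be technical. Of the lung libraries, 1 and 2 carry a usable number, and the other two are called a and b.

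Peaks of open chromatin mark promoters and the enhancers that transcription factors bind. Promoters tend to be open in many cell types, whereas enhancers are often open in few. Endothelial cells of all organs share a core programme of junction, receptor and transcription factor genes. Added to it are programmes of the organ: a tight barrier in brain, an open, scavenging sinusoid in liver, and thin gas-exchanging capillaries in lung.

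Depth was 5003580 to 17956240 counts in brain, 1856763 to 2175575 in liver and 1244653 to 6046832 in lung, with lung a and b the shallowest of all. Correlations of log2 CPM across peaks, which are not replicates, were 0.935 to 0.962 within brain, 0.841 to 0.86 within liver and 0.778 to 0.946 within lung. The RNA libraries of the same series, which are separate samples, carried pan-endothelial markers (8 genes) at a summed 5537.9 to 12809.7 CPM. The markers of each bed (5 genes per list) summed highest in that bed. They reached 9786.4 to 9937.3 CPM in brain, 4800.6 to 5814.3 in lung and 6280.9 to 7525.3 in liver. Lung RNA had brain markers at 473.7 to 731.0 CPM and sinusoidal ones at 796.9 to 1158.3. Liver RNA had lung markers at 781.3 to 958.5 CPM and brain ones at 46.2 to 74.2. Brain RNA had lung markers at 317.7 to 405.2 CPM and sinusoidal ones at 0.0918 to 3.9. Lung RNA also held epithelial transcripts (Sftpc, Sftpb, Scgb1a1 and Epcam, 293.0 to 1782.7 CPM summed), which had 0 counts in brain and at most 5.25 CPM in liver. Other lists were high elsewhere: hepatocyte markers (4 genes) summed to 195.3 to 526.5 CPM in liver and at most 2.48 in lung, and in brain to 46.1 to 961.1 CPM, all of it Ttr, as Alb, Apoa1 and Cyp3a11 had 0 counts there. Mural markers (4 genes) summed to 19.5 to 122.2 CPM in brain, 8.36 to 12.9 in lung and 0.899 to 2.22 in liver, where Pdgfrb had 0 counts. Erythroid markers (3 genes) summed to 30.7 to 247.5 CPM in brain, 5.35 to 70.2 in lung and 0.74 to 11 in liver. Leukocyte markers (5 genes) summed to 60.5 to 114.8 CPM in lung, 0.279 to 7.71 in brain and 5.90 to 19.0 in liver; Cd79a and Cd3e had 0 counts in brain and Itgam in liver. The ATAC peaks carry no gene names here, so the cell type of those libraries could not be checked by markers. Whether other cells took part in the low lung signal of the ATAC libraries was not tested. In sorted bulk cells, fewer cells with an open site and less opening per cell cannot be told apart.

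The lung signal at these peaks was low but seldom absent. In lung the median peak of the set had 3.51 CPM, with quartiles of 2.37 and 6.03 and a range of 0.452 to 151.0 CPM. The medians were 12.5 CPM in brain and 10.6 CPM in liver. Among all autosomal peaks the median was 5.25 CPM in lung, 4.69 in brain and 7.23 in liver. The median peak of the set thus stood at the 34.6th percentile of lung levels, the 72.2nd of brain and the 63.3rd of liver. No peak had 0 counts in all 4 lung libraries: the lowest sum was 7 counts and the median 52. The lung mean was under 1 CPM in 12 peaks and at least 5 CPM in 369 (32.5%), against 51.8% of all autosomal peaks at that level. For those 369 peaks, lower in lung describes the data better than closed.

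Most peaks lay near the threshold. The ratio of the lower of the brain and liver means to the lung mean, with 0.5 added to each, had a median of 2.45. It was under 3 in 864 peaks, from 3 to 4 in 195 and at least 4 in 77. Just inside the threshold a peak at chr8:108238781-108239426 (mm9, as are all positions here) had means of 14.4 CPM in brain, 12.7 in liver and 6.09 in lung. The next 2 inside were at chr13:81148328-81148864 (6.27, 5.64 and 2.57 CPM) and chr2:148293711-148294676 (17.6, 16.8 and 8.13 CPM). Just outside were chr1:62788553-62789024 (7.41, 6.23 and 2.87 CPM), chr5:23264492-23264867 (5.69, 7.00 and 2.60 CPM) and chr17:43571369-43571782 (6.61, 7.79 and 3.06 CPM). The ratios of all 6 round to 2.00, so these peaks hardly differ in the value that chose.

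By library, the median CPM over the set was 11.4, 15.1, 12.2 and 11 in brain 1 to 4. It was 11.1, 10.1 and 11.8 in liver 1 to 3, and 3.24, 4.30, 2.99 and 3.21 in lung 1, 2, a and b. All 4 lung medians were below all 7 others. In the remaining peaks open in both, the medians of the same libraries were 18.8 to 22.5 CPM in brain, 21.1 to 23.2 in liver and 20.1 to 23.8 in lung, so there lung was level with the other tissues. The shallow libraries were read from few counts: the median peak of the set had 4 counts in lung a and in lung b, 19 in lung 1 and 26 in lung 2. Lung a had 0 counts in 142 of the 1136 peaks and lung b in 119, while lung 1 and lung 2 had none at 0.

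**Figure D1:**
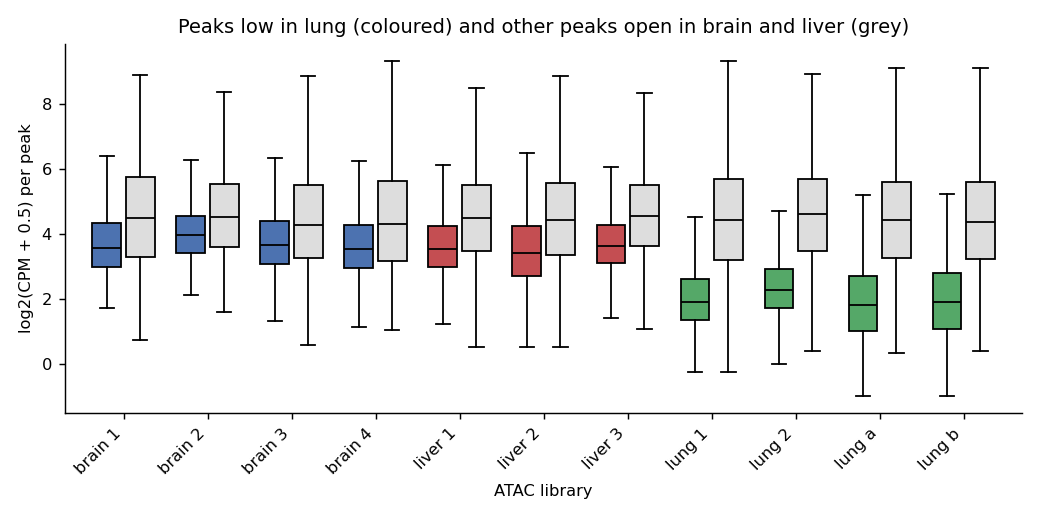
Accessibility per peak, log2(CPM + 0.5), in each ATAC library (box: quartiles with the median; whiskers: up to 1.5 times the box height). Coloured boxes are the 1136 peaks low in lung and grey boxes the other 18594 peaks open in brain and liver; only in the lung libraries is the coloured median under 5 CPM, and the grey medians are alike in all tissues.

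Each lung library on its own met the 2-fold threshold against the brain and liver means in 951 (lung 1), 696 (lung 2), 908 (lung a) and 828 (lung b) of the 1136 peaks. All 4 did so in 336 peaks, 3 of them in 467, 2 in 305 and a single library in 28. Relative to the mean, the spread between libraries was wider in lung (median coefficient of variation 46.5%) than in brain (22.1%) or liver (25.4%). The rule chose low lung means, and lung a and b had few counts, so this measure is not read as a property of lung. Every lung library was below every brain and liver library in 862 peaks of the set (75.9%), against 4.69% of all autosomal peaks and 7.85% of the peaks open in both. The rule used these same libraries, so nothing is read from that difference.

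A lung library that took no part in choosing the peaks gives lung levels that the rule did not fix. The brain and liver levels set beside it are still those that chose. When the rule was applied without lung 1, it chose 1069 peaks, and lung 1 had a median of 3.76 CPM in them, against 3.39 in the 3 lung libraries that chose and medians of 12.4 in brain and 10.8 in liver. For lung 2 the left-out median was 5.13 CPM in 1418 peaks, against 3.20 in the other lung libraries. For lung a it was 4.49 CPM in 1102 peaks and for lung b 4.82 CPM in 1258 peaks, against 3.42 and 3.27 in the other lung libraries. Each left-out library was thus low beside brain and liver, whose levels the rule set, and each was less low than the libraries that chose. Over all autosomal peaks the medians of lung 1, 2, a and b were 4.44, 5.79, 5.24 and 5.62 CPM, only a little above the left-out medians. The left-out library alone met the 2-fold threshold in 74.0% (lung 1), 45.6% (lung 2), 63.0% (lung a) and 53.5% (lung b) of the peaks. In all peaks open in both it did so in 9.83%, 5.19%, 11.1% and 10.2%. Those peaks include the chosen ones and are more open on the whole, so the shares are not matched for level. With 1 library read at a time, these are descriptions without a test.

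**Figure D2:**
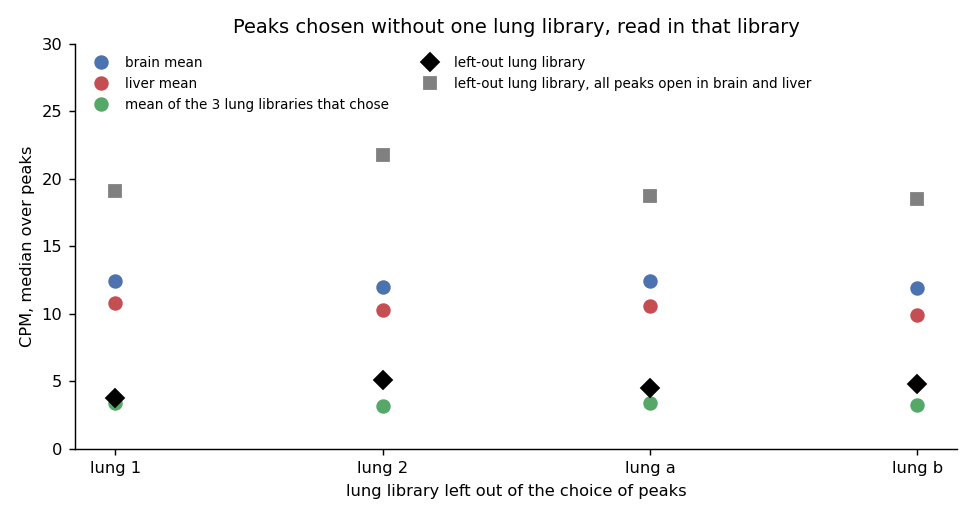
Peaks chosen by the rule without 1 lung library (x axis), as the median CPM over those peaks in brain, liver, the 3 lung libraries that chose and the left-out library. The left-out library (diamonds, 3.76 to 5.13 CPM) lies a little above the lung libraries that chose and under brain and liver; grey squares give it over all peaks open in brain and liver, which are more open on the whole.

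Peaks chosen with a 4-fold threshold met the 2-fold one more often in a left-out library, which a stricter choice favours. They met their own threshold less often than peaks chosen at 2-fold met theirs. With a 4-fold threshold, the rule without lung 1 chose 86 peaks, of which 80 (93.0%) met the 2-fold threshold in lung 1 and 39 (45.3%) the 4-fold one. Without lung 2 it chose 148, of which 115 (77.7%) and 25 (16.9%) did. Without lung a it chose 93 (91.4% and 39.8%) and without lung b 91 (89.0% and 40.7%). A gap of 2-fold thus held in most of these peaks, and a gap of 4-fold in fewer than it was chosen for.

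Among the 547 peaks with brain and liver means of at least 10 CPM, the 8 with the largest ratio are described here and numbered by it. Peak 1, chr4:31353534-31354184, had 14.9, 27.9, 32.8 and 28.3 CPM in brain, 33.3, 44.1 and 19.4 CPM in liver, and 1.88, 2.32, 0 and 1.61 CPM in lung. That is 26.0 ± 7.69 (SD, n = 4), 32.3 ± 12.4 (n = 3) and 1.45 ± 1.01 CPM (n = 4), a ratio of 13.6 and the largest of the set. The lung values came from 11, 14, 0 and 2 counts, and no lung library came near the lowest brain library. Peak 2, chr9:95050445-95050939, had 14, 17.5, 23.6 and 17.6 CPM in brain, 31.0, 32.2 and 16.2 in liver, and 1.19, 2.48, 0 and 0.803 in lung, a ratio of 11.5. Peak 3, chr15:69381333-69381799, had 11.6, 18.2, 31.6 and 16.7 CPM in brain, 23.1, 23.9 and 10.2 in liver, and 2.22, 3.31, 0 and 0 in lung, a ratio of 10.4. In these 3 peaks liver 3 was the lowest liver library and brain 3 the highest brain library, and no lung library overlapped the others.

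In peaks 4, 5 and 8, and in peak 7 described after them, every brain library was above every liver library. Peak 4, chr13:111368142-111368858, had 27.3, 36.3, 26.4 and 19.4 CPM in brain, 17.1, 15.2 and 16.2 in liver, and 1.54, 2.32, 0 and 3.21 in lung (ratio 7.34). Peak 5, chr19:18683399-18684026, had 26.0, 29.1, 32.8 and 23.7 CPM in brain, 11.1, 15.6 and 18.9 in liver, and 1.54, 3.8, 0 and 1.61 in lung (ratio 7.02). Peak 8, chr15:7926679-7927246, had 22.8, 32.5, 32.6 and 18.9 CPM in brain, 11.6, 18.4 and 13.5 in liver, and 3.58, 1.98, 0 and 1.61 in lung (ratio 6.53). The rule allowed up to a 2-fold difference between the brain and liver means. Lung a had 0 counts in 6 of the 8 peaks: the first 5 and the eighth.

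Peaks 6 and 7 had counts in every lung library. Peak 6, chr1:140243267-140243873, had 15.1, 21.5, 26.0 and 14.4 CPM in brain, 15.3, 20.2 and 20.5 in liver, and 3.24, 2.48, 1.5 and 2.41 in lung (ratio 6.59). Peak 7, chr3:37627925-37628682, was the most open of the 8, with 42.9, 36.9, 42.4 and 47.3 CPM in brain, 28.2, 36.8 and 32.9 in liver, and 7.34, 3.8, 1.5 and 5.62 in lung (ratio 6.54). On the log2 scale, the edgeR fit put lung below brain by −2.94 (peak 6) to −3.97 (peak 4) in the 8 peaks, and below liver by −2.44 (peak 8) to −3.98 (peak 1).

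**Figure D3:**
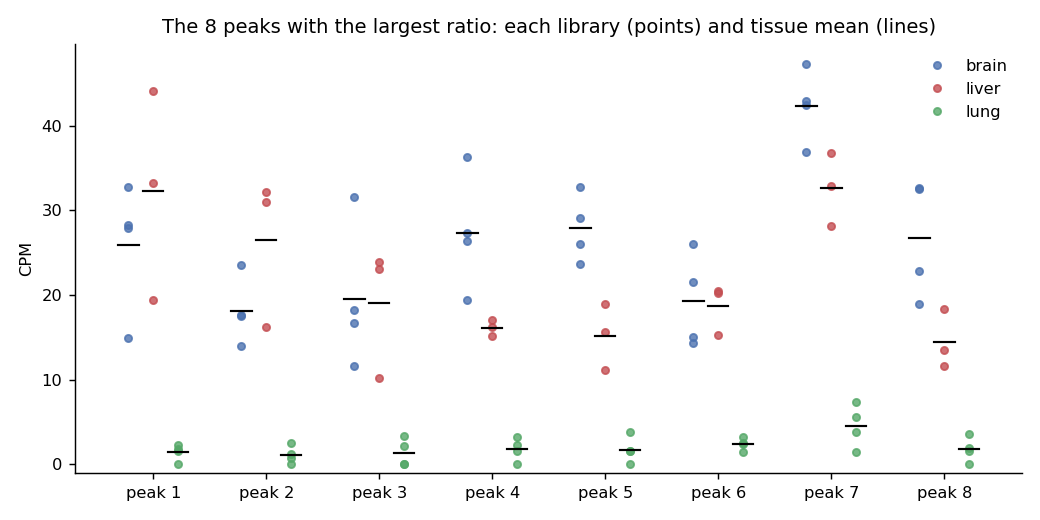
CPM of each brain, liver and lung library (points) and the tissue mean (lines) at 8 peaks, numbered as in the text. These have the largest ratios among peaks of the set with brain and liver means of at least 10 CPM. All lung points lie between 0 and 7.34 CPM and under every brain and liver point of the same peak.

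The most open peaks of the set were clustered at the start of chromosome 11. Of the 4 with the highest level in brain and liver, 3 lay there. The peak at chr11:3044226-3044609 had means of 412.2 ± 87.9 CPM in brain (n = 4), 307.8 ± 26.6 in liver (n = 3) and 151.0 ± 34.5 in lung (n = 4), and the one at chr11:3066394-3066994 had 299.8 ± 102.4, 225.6 ± 32.5 and 110.0 ± 28.6 CPM. The third, chr11:3086528-3087024, had 355.9 ± 92.9, 323.0 ± 16 and 87.1 ± 21.7 CPM. Their ratios were 2.03, 2.05 and 3.69, so lung was lower but far from closed. The first 3200000 bases of this chromosome held 37 peaks, 17 of them open in both, with brain means of 0.583 to 1237.1 CPM. This stretch adjoins the centromere, and how uniquely its reads map was not tested. The fourth, chr4:9595741-9596768, was on another chromosome. It had 162.1, 152.4, 219.2 and 235.0 CPM in brain, 171.6, 221.6 and 113.6 in liver, and 32.3, 33.9, 46.4 and 59.5 in lung.

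The 3 widest peaks with at least 10 CPM were open in lung as well. The widest, chr17:79753814-79755866, spans 2053 bases and had 184.3 ± 19.4 CPM in brain, 112.0 ± 20.6 in liver and 49.0 ± 3.78 in lung (n = 4, 3 and 4). The others, chr3:135487915-135489697 (1783 bases) and chr2:101636549-101638165 (1617 bases), had lung means of 32.2 ± 6.46 and 17.9 ± 6.93 CPM. Their brain means were 103.2 ± 10.1 and 42.7 ± 7.58 CPM and their liver means 90 ± 4.82 and 69.6 ± 4.36 CPM. In the last of them liver was above brain in every library, the reverse of the widest.

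Membership of the set was commoner among weak peaks, by levels that the rule itself used. Of peaks open in both with a mean brain and liver level of 5 to 10 CPM, 462 of 4939 (9.35%) were in the set. The share was 8.17% at 10 to 20 CPM, 4.94% at 20 to 40 CPM and 1.23% (70 of 5677) at 40 CPM or more. Peaks with lung at least 2-fold above both other tissues were also commonest at low level, with 135, 99, 25 and 6 peaks in the same classes. At 5 CPM, lung a holds 6.68 counts and lung b 6.22. How much counting error adds to either class at low level was not tested. Over all levels there were 265 of them, against the 1136 peaks with lung below. Scaled by TMM, a method that allows for a few strong peaks taking up reads, these counts became 345 and 763. Among peaks open in both, lung-low peaks thus outnumbered lung-high peaks under both scalings, by different margins. The minimum of 5 CPM in brain and liver leaves out peaks open mainly in lung. The 2 counts are therefore not an even comparison, and nothing is read from them about lung as a whole. The same rule with brain as the low tissue gave 3263 peaks, and with liver as the low tissue 265. With TMM these were 2373 and 584.

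The set was not unusual in width once level was held alike. The peaks were 201 to 2053 bases wide with a median of 539, against 670 for the other peaks open in both and 409 for all autosomal peaks. Within a class of level, medians were 440 and 429 bases at 5 to 10 CPM for the set and for the others, 569 and 562 at 10 to 20, 694 and 730.5 at 20 to 40, and 916.5 and 952 at 40 or more. Width thus followed level, and the set's narrower median went with its lower levels.

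Within the set, brain was above liver in 734 peaks and liver above brain in 402, with a median brain to liver ratio of 1.13, against 0.994 in the other peaks open in both. This depends on scaling, since with TMM the ratio in the set was 1.41 and brain was above liver in 952 peaks. The edgeR fit called brain above liver in 204 peaks of the set and below it in 0, against 32.0% of all 58293 tested peaks called in either direction. The rule bounds this contrast to 2-fold before TMM scaling, which the fit uses and which moves brain up against liver. Calls of liver above brain were thus all but excluded in advance, and nothing is read from the 2 counts. Of the 1136 peaks, all of which passed the count filter, the fit called 1129 lower in lung than in brain, against 15% of all peaks tested. It called 736 lower in lung than in liver, against 8.28%, and 734 lower in both, against 2.62%. A call needed an edgeR quasi-likelihood Benjamini-Hochberg adjusted p under 0.05 and a log2 fold change of at least 1. The rule used both contrasts, and nothing is read from these counts. The median log2 difference over the set was −1.82 from brain and −1.28 from liver, beside 0.10 and −0.08 over all peaks tested.

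On the chromosomes, the peaks of the set lay nearer to one another than the other peaks open in both lay to them. Most still had no other peak of the set within 100 kb. The rule did not use distance. Another peak of the set lay within 10 kb of 134 of the 1136 (11.8%), against 2.61% of the other peaks open in both that had one so near. Within 50 kb the shares were 25.0% and 9.81%, within 100 kb 33.5% and 16.6%, and within 500 kb 60.8% and 46.3%. The median distance to the nearest other peak of the set was 295.4 kb, against 576.3 kb from the other peaks open in both. Peaks of the set were also nearer to any peak, at a median of 4.17 kb against 5.84 kb, and the shares above were not matched for this. In the list of all peaks, 145 (12.8%) were next to another of the set, against 3.19% of the other peaks open in both. Peaks are not replicates and nearby peaks can share reads and neighbours, so no test is given.

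Peaks outside the set were lower in lung the nearer they lay to it. Within 5 kb of a peak of the set, the median log2 ratio of lung to the mean of brain and liver (0.5 added to each) was −0.57 over 795 peaks. It was −0.31 at 5 to 20 kb, −0.23 at 20 to 50 kb, −0.17 at 50 to 100 kb, −0.08 at 100 to 500 kb and −0.07 beyond (30261 peaks). Among peaks open in both that missed the set, it was −0.42 (252 peaks), −0.22, −0.13, −0.04, −0.02 and 0 in the same classes. With TMM scaling the order was the same, from −0.52 within 5 kb to −0.01 beyond 500 kb over all peaks outside the set. These peaks were measured in the same libraries that chose the set, and the values are a description.

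**Figure D4:**
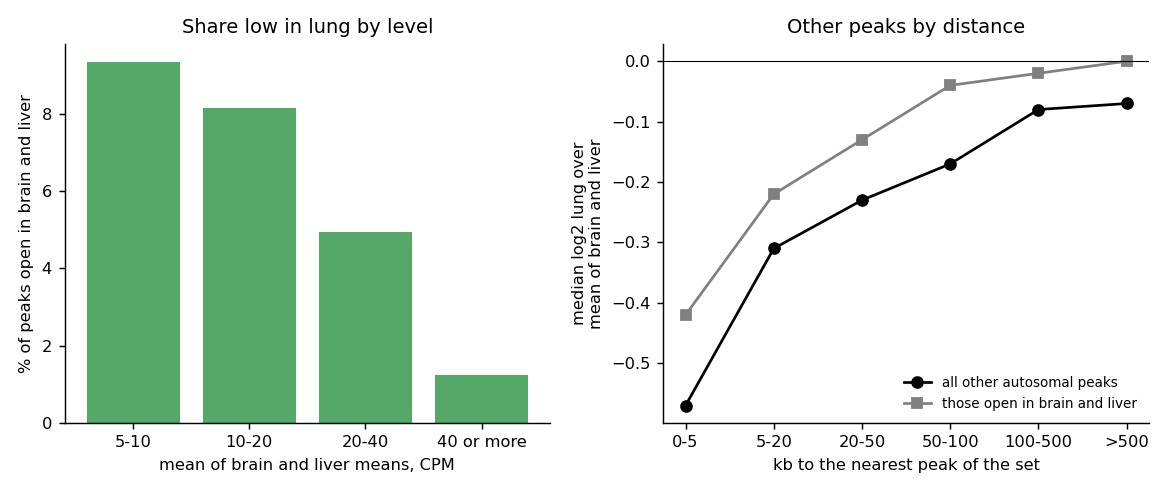
Left, the share of peaks open in brain and liver that belong to the set, by the mean of the brain and liver levels in CPM; it drops from 9.35% to 1.23%. Right, the median log2 ratio of lung to the mean of brain and liver over peaks outside the set, by distance in kb to the nearest peak of the set; it goes from −0.57 within 5 kb to −0.07 beyond 500 kb.

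The longest stretch of consecutive peaks of the set held 5 peaks over 9038 bases, at chr10:56092918-56101955. In order, their lung means were 2.10 ± 1.43, 5.04 ± 0.94, 14.4 ± 7.45, 0.671 ± 0.784 and 1.49 ± 0.371 CPM (n = 4). The brain means were 7.47 ± 1.85, 21.7 ± 2.59, 43.5 ± 8.09, 6.37 ± 1.67 and 6.57 ± 1.41 CPM (n = 4), and the liver means 7.38 ± 2.03, 30.5 ± 8.68, 44.1 ± 11.6, 6.12 ± 3.20 and 11.7 ± 4.05 CPM (n = 3). The middle peak, chr10:56098342-56099281, was the most open in all 3 tissues, with 40.9, 34.2, 53.4 and 45.7 CPM in brain, 40.7, 57.0 and 34.5 in liver, and 8.88, 8.27, 16.5 and 24.1 in lung. Lung was under every brain and liver library in all 5 peaks. The next peak before them, chr10:56088950-56089303, missed the set with a ratio of 1.87 (7.48, 10.8 and 3.78 CPM in brain, liver and lung). At the 4 peaks before that one ratios were 0.732 to 1.09, and chr10:55948275-55949184 had 128.4 ± 19.9 CPM in brain, 77.6 ± 18.6 in liver and 106.2 ± 23.1 in lung. On the other side, lung was the lowest tissue at 3 of the 5 peaks that follow. There chr10:56153659-56153981 had 2.92 ± 1.38 CPM in brain, 2.74 ± 0.0433 in liver and 0.479 ± 0.384 in lung, a ratio of 3.31 at levels under the minimum of 5 CPM.

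A stretch of 3 peaks at chr7:108598903-108605684 covered 6782 bases. Its first peak, 1123 bases wide, had 40.9 ± 6.22 CPM in brain, 40.8 ± 6.90 in liver and 17.5 ± 4.84 in lung. The second, chr7:108602197-108602730, had 35.1 ± 4.49, 24.7 ± 6.08 and 3.57 ± 2.32 CPM, with lung libraries at 1.88, 4.47, 1.5 and 6.43. The third had 11.4 ± 3.23, 7.59 ± 1.64 and 2.04 ± 1.70 CPM. At the 5 peaks before this stretch brain was the lowest tissue, and lung lay above liver in 3 of them and below it in 2: at chr7:108526326-108526848 lung had 13.1 ± 2.70 CPM against 4.13 ± 1.59 in brain and 11.3 ± 3.29 in liver. The next peak after it, with a ratio of 1.90, had 7.96 ± 4.14 CPM in brain, 6.00 ± 3.33 in liver and 2.92 ± 1.36 in lung. Lung was the lowest tissue at these 3 peaks and at the 2 after them, and at none of the 5 before.

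**Figure D5:**
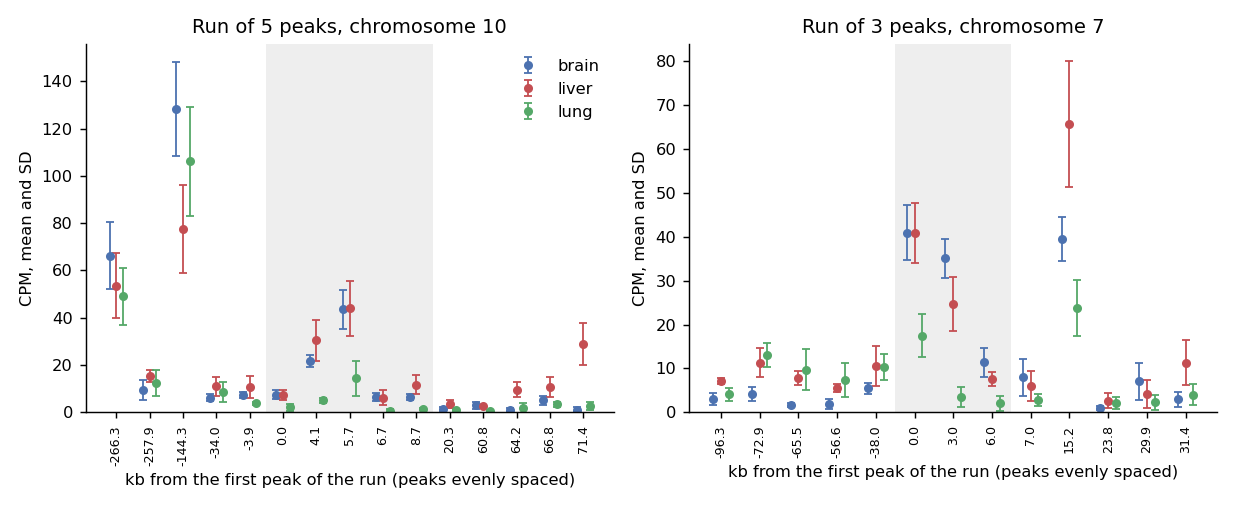
Mean CPM with SD over libraries (4 brain, 3 liver, 4 lung) at consecutive peaks, by distance in kb from the first peak of the run, for the runs on chromosomes 10 and 7 with 5 flanking peaks on each side. Grey bands mark the runs, where lung is the lowest tissue at each peak.

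A further stretch of 3 was found at chr4:137046001-137054720. Its lung means were 2.89 ± 2.96, 7.10 ± 3.04 and 2.74 ± 1.83 CPM, its brain means 7.00 ± 2.23, 28.6 ± 7.58 and 14.9 ± 2.27 CPM, and its liver means 13 ± 2.04, 27.0 ± 3.89 and 13.6 ± 2.62 CPM. In the first of these, lung b (7.23 CPM) overlapped brain, whose libraries ranged from 5.40 to 10.3 CPM. In all, 58 stretches of 2, 8 of 3 and 1 of 5 were found, while 991 peaks had no neighbour in the set.

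On a larger scale, the set was spread over all autosomes. It took up 3.81% (chromosome 19) to 8.83% (chromosome 18) of the peaks open in both, with 8.80% on chromosome 13 and 7.80% on chromosome 3. Of 2214 windows of 1 Mb with a peak, 719 held a peak of the set and 93 held 3 or more. The fullest windows were picked after their counts were seen. The window at chr18:55000001-56000000 held 9 of its 16 peaks open in both, and medians over the 9 were 13.3 CPM in brain, 12.3 in liver and 4.56 in lung. Lung was below all other libraries in all 9, with ratios of 2.14 to 3.21, while its 7 other peaks open in both had a median log2 lung ratio of −0.11.

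The window at chr13:31000001-32000000 held 8 of 15, with medians of 17.3 CPM in brain, 14.2 in liver and 5.84 in lung, and 4 of the 8 without overlap. Its other 7 peaks open in both were low in lung too, at a median log2 ratio of −0.73. At chr9:32000001-33000000 the set held 7 of 23 peaks open in both (12.5, 14.7 and 3.05 CPM) and at chr10:20000001-21000000 6 of 17 (16.1, 15 and 4.46 CPM). The window with the stretch of 5, chr10:56000001-57000000, held 6 of 12, and that of peak 7, chr3:37000001-38000000, 6 of 15. In the chr10:56000001-57000000 window and the chr3:37000001-38000000 window the remaining peaks open in both stood at −0.79 and −0.66. In the chr9:32000001-33000000 window and the chr10:20000001-21000000 window they stood at −0.26 and −0.36. Over these windows the medians of the remaining peaks thus ran from −0.11 to −0.79, each over 6 to 16 peaks.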

How the data were processed

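The peak values are deposited counts of reads per peak over 1 merged peak set that, per the file headers, left out a library called lung 3. The submitters' processing notes name MACS2, Bowtie2, bedtools and Picard, besides SAMtools (version 1.10.2) and tools for RNA, and the builds mm10 and mm9, but link none of them to an assay. Chromosome names in the peak table occur in mm9, so positions are mm9, counted from 1. Gene tables at hand were of build GRCm38 and positions were not converted, so peaks carry no gene names and no sequence is printed. The deposited RNA counts per symbol were scaled to CPM for the marker check alone; the single-cell table was not used here.

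Sets, levels and distances (between peak centres) were computed in Python 3.11.15. Calls came from edgeR 4.0.16 in R 4.3.3 (filterByExpr, 58293 peaks kept; TMM; 1 robust quasi-likelihood fit of all libraries with a mean per tissue; biological coefficient of variation 0.275). The fit was tested on simulated counts. The members and lists were chosen with earlier results of these data known. Named peaks were, among those with brain and liver means of at least 10 CPM, the 8 largest ratios, 4 highest levels and 3 widest, then the 3 longest runs over the whole set (ties by summed ratio), and 3 peaks on each side of the threshold. Alternatives were other scalings, thresholds, filters, DESeq2 1.42.0, left-out libraries and a replicate block. Precision is limited by counts: 5 CPM stands for 6.68 counts in lung a and 6.22 in lung b.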

Additional observations from a re-analysis of the deposited data

Results flagged for a closer look

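Of 66 groups of 4 library values examined, 1 held a library far from the others; chance alone sets apart about 1 in 20 such groups. At the last peak of the chromosome 4 stretch, chr4:137054203-137054720, lung b had 0 CPM (0 counts), while the other lung libraries lay between 3.41 and 3.8 CPM. The peak had 5 counts in lung a, the other shallow library.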

How the results depend on the processing

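The number of peaks in the set was 1136. It was 272 with a 3-fold and 77 with a 4-fold threshold, and 547 with a minimum of 10 CPM, as these rules are stricter. It was 763 with TMM scaling (653 of them shared with the 1136), 1145 with totals over autosomal peaks, 949 with a pseudocount of 1, 1216 with tissue medians (867 shared), and 1030 to 1483 without 1 library. Chosen after seeing the data, leaving out lung a and b gave 1254 (854 shared), and adding 0.5 before the brain-liver bound 1162. Of the 1136 peaks, those without overlap numbered 862 (816 with TMM, 863 to 962 without 1 library, 972 without lung a and b). The shares over all autosomal peaks were 3.98% with TMM, 4.78% to 6.92% without 1 library and 8.83% without lung a and b. Calls lower in lung numbered 1129 against brain (1085 to 1132 over scalings, filter and DESeq2; 1091 to 1129 without 1 library; 1069 without lung a and b). Against liver they numbered 736 (725 to 888, 542 to 736 and 637 in the same settings). In these settings the shares over all peaks tested were 12.6% to 16.1%, 13.8% to 15.9% and 15.3% against brain. Against liver the shares were 7.91% to 9.85%, 6.27% to 8.89% and 7.57%. The rule used both contrasts, so nothing is read from these counts. Same-numbered libraries of different tissues did not deviate together (correlations of −0.175 to 0.115, against −0.115 to 0.179 for libraries of different numbers). With so few libraries per tissue, these correlations cannot show whether same-numbered libraries came from the same animals. With the replicate block, on numbered libraries alone, calls were 1031 against brain and 524 against liver, beside 13.9% and 5.94% of all peaks tested. Without TMM, the median log2 change over all peaks shifted by 0.11 for lung minus brain and by −0.21 for lung minus liver, and the share of lung versus liver calls that were higher in lung from 39.9% to 23.8%. Left-out lung medians with TMM were 4.29, 4.90, 4.50 and 4.77 CPM in lung 1, 2, a and b. These libraries met the 2-fold threshold in 61.2%, 46.6%, 61.4% and 54.3% of the chosen peaks. In all peaks open in both they did so in 5.82%, 4.06%, 9.05% and 8.88%. The median width was 554 bases at the 4-fold threshold. Of the fold changes of the peaks named for ratio, level or width, 86 kept their side of the call threshold over library size scaling, DESeq2 and the block, and 4 passed it only there: against liver, chr11:3044226-3044609 (−1.04), chr11:3066394-3066994 (−1.04) and chr17:79753814-79755866 (−1.18) with library size alone, and the last (−1.0) with DESeq2.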

Other observations

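A library of brain or liver left out of the rule was read in the peaks chosen without it. Brain 1, 3 and 4 had medians of 11, 12 and 10.5 CPM, against 12.1, 12.3 and 12.4 in the brain libraries that chose, and brain 2 had 16.3 against 12.8. Liver 1 had 10.2 against 10.9 CPM and liver 3 had 11.3 against 11.5. Liver 2 stood lower, at 6.89 CPM against 9.97 in the 1483 peaks chosen without it, near its median of 6.44 over all autosomal peaks; with TMM scaling these were 8.87 and 9.76 CPM.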
